A study of Mus musculus with 32 samples.

Results

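The miR-26 guide strands, mmu-miR-26a-5p and mmu-miR-26b-5p, were followed through small RNA-seq profiles of ovarian cancer mouse models. These were the 2 members, taken by name out of 1513 mouse miRNAs. The 32 libraries fell into 8 groups. Extracellular vesicles (EVs) were captured on cellulose nanofiber (CNF) sheets laid on organs, which absorb the film of ascites there. The mice were female, aged 8 weeks per the labels and of the nude strain BALB/cSlc-nu/nu, which lacks a thymus and so most T cells. The tumor cells were ID8-T6, a highly metastatic subclone of the mouse ovarian carcinoma line ID8, so that every tumor came from 1 subclone.

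In the intraperitoneal (IP) model, with sampling on day 14 per the study's methods, 4 groups of 3 libraries were compared. They were pelvic CNF sheet EVs of mice injected with ID8-T6 cells (tumor EVs), pelvic CNF sheet EVs of PBS control mice (normal EVs), tumor tissue, and normal tissue of PBS mice, which the study gives as ovaries. In the orthotopic model ID8-T6 cells were placed in the left ovarian bursa. CNF sheet EVs came from the pelvic peritoneum and the liver surface on day 0 and day 4, with 5 libraries per site and day. The labels name the second site diaphragm, and the study's term liver surface is used here. The orthotopic model had no PBS group, and what was done to the mice before sampling on day 0 is not in the labels. The labels do not say whether replicates were separate mice, so that p-values measure the spread between these samples, which may be technical.

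A miRNA is cut from a hairpin. One arm, the guide strand, is loaded into an Argonaute protein and pairs with target mRNAs mainly through its seed (bases 2 to 8), while the other arm, the partner strand, is mostly degraded. The miR-26 family is made from introns of the Ctdsp genes, which encode small phosphatases of the RNA polymerase II tail. It is abundant in most adult tissues and represses, among others, the histone methyltransferase Ezh2. In many tumors it is described as a restraint on growth.

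The mature sequences are shown because both members share the seed, printed in capitals, and are told apart by few bases. Both names matched RefSeq's mouse miRNAs (build GRCm38.p6).
mmu-miR-26a-5p: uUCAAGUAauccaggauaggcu
mmu-miR-26b-5p: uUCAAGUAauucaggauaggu
The first 10 bases were the same in both. Counted from 1 at the 5′ end of mmu-miR-26a-5p, the difference inside the strand was C11U, with the base of mmu-miR-26a-5p first, and mmu-miR-26b-5p lacked the C at position 21. Of 1679 mature mouse names in the RefSeq table, only these 2 carried the seed UCAAGUA. The next nearest mature sequence differed by 8 edits from either member. The authors allowed up to 2 mismatches, and how they treated reads that match more than 1 miRNA is not given in the sources used here. Some reads of one member may therefore be counted under the other, and the split between the members is uncertain to that extent.

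The genome holds 3 miR-26 hairpins, and mmu-miR-26a-5p is identical from Mir26a-1 and Mir26a-2. The hairpins are shown with the 5p strand in capitals, since their loops and partner arms are what separates the loci.
Mir26a-1: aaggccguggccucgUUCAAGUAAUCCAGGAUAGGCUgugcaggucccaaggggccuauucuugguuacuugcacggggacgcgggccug
Mir26a-2: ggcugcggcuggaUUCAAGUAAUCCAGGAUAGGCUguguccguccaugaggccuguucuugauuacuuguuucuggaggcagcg
Mir26b: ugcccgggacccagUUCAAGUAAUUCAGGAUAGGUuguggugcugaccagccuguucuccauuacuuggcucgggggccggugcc
In GRCm38, Mir26a-1 lies at chr9:119031796-119031885 inside Ctdspl, with no exon overlapping it in GENCODE M21. Mir26a-2 lies at chr10:126995530-126995613 inside Ctdsp2, where it overlaps an exon of 2 transcripts by 1 base. Mir26b lies at chr1:74394310-74394394 inside Ctdsp1, again between exons. All of these hairpins and their host genes are on the plus strand.

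Values were in RPM, the reads of a miRNA in every 1e+06 miRNA reads of its library. Whole reads could be recovered from them and numbered 132483 to 2540577 per library. The 10 orthotopic libraries of day 4 held 132483 to 661582 reads and the 10 of day 0 held 1022869 to 2540577, so that depth and day did not overlap and cannot be told apart. RPM is a share, and miR-21a-5p, a miRNA that rises in many tumors and inflamed tissues, took 318528 to 362333 RPM of the tumor EVs against 49734 to 147402 RPM of the normal EVs. The RNA of sheets and of tissues was also extracted with different kits, so the kit cannot be told apart from the EV and tissue groups. Blood markers varied widely between sheets: the summed level of 4 red blood cell miRNAs ran from 687 to 125542 RPM over the EV libraries. On the liver surface on day 0, the hepatocyte miRNAs (miR-122 and miR-802) ran from 1298 to 175315 RPM in sum.

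mmu-miR-26a-5p was among the most abundant miRNAs of every sheet. It ranked 1 to 8 in the 26 EV libraries, and was the first of all miRNAs in replicate 5 of the liver surface on day 0, at 112335 RPM. In tissue it ranked 3 to 5. mmu-miR-26b-5p ranked 11 to 23 in the EV libraries and 28 to 42 in the 6 tissue libraries. mmu-miR-26a-5p was above mmu-miR-26b-5p in 32 of 32 libraries. Together they made up 3.82% to 12.9% of the reads of a CNF sheet EV library and 4.12% to 9.01% of a tissue library. The 95% Wilson intervals cover counting error only and were narrow. For replicate 1 of the normal EVs, mmu-miR-26b-5p was 19.4% of the family's reads (19.2% to 19.7%). In the shallowest library, replicate 3 of the pelvic peritoneum on day 4, it was 22.5% (21.5% to 23.5%).

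The mean level of mmu-miR-26a-5p was highest on the pelvic peritoneum on day 0, at 98404 ± 5237 RPM (SD, n = 5). The liver surface on day 0 followed with 83673 ± 22508 RPM (n = 5), the normal EVs with 82709 ± 12736 RPM (n = 3) and normal ovaries with 75036 ± 15484 RPM (n = 3). Tumor tissue held 64799 ± 23521 RPM (n = 3). The lowest 3 groups lay close together, at 43021 ± 18595 RPM for the pelvic peritoneum on day 4 (n = 5), 42136 ± 7543 RPM for the liver surface on day 4 (n = 5) and 41595 ± 2158 RPM for the tumor EVs (n = 3). Each neighbour in this order overlapped the next and differed from it by less than the larger SD.

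The order of mmu-miR-26b-5p was another one. The normal EVs were highest with 20322 ± 3963 RPM (n = 3), before the pelvic peritoneum with 16479 ± 2264 RPM and the liver surface with 15928 ± 3287 RPM on day 0 (n = 5 each). Then came the liver surface with 13203 ± 2683 RPM and the pelvic peritoneum with 11930 ± 3328 RPM on day 4 (n = 5 each), and the tumor EVs with 10873 ± 221 RPM (n = 3). Below all EV groups lay normal ovaries with 4906 ± 599 RPM and tumor tissue with 3808 ± 787 RPM (n = 3 each). The step from the tumor EVs to the normal ovaries was the 1 step in this order without overlap, and that from ovaries to tumors also exceeded the larger SD.

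**Figure D1:**
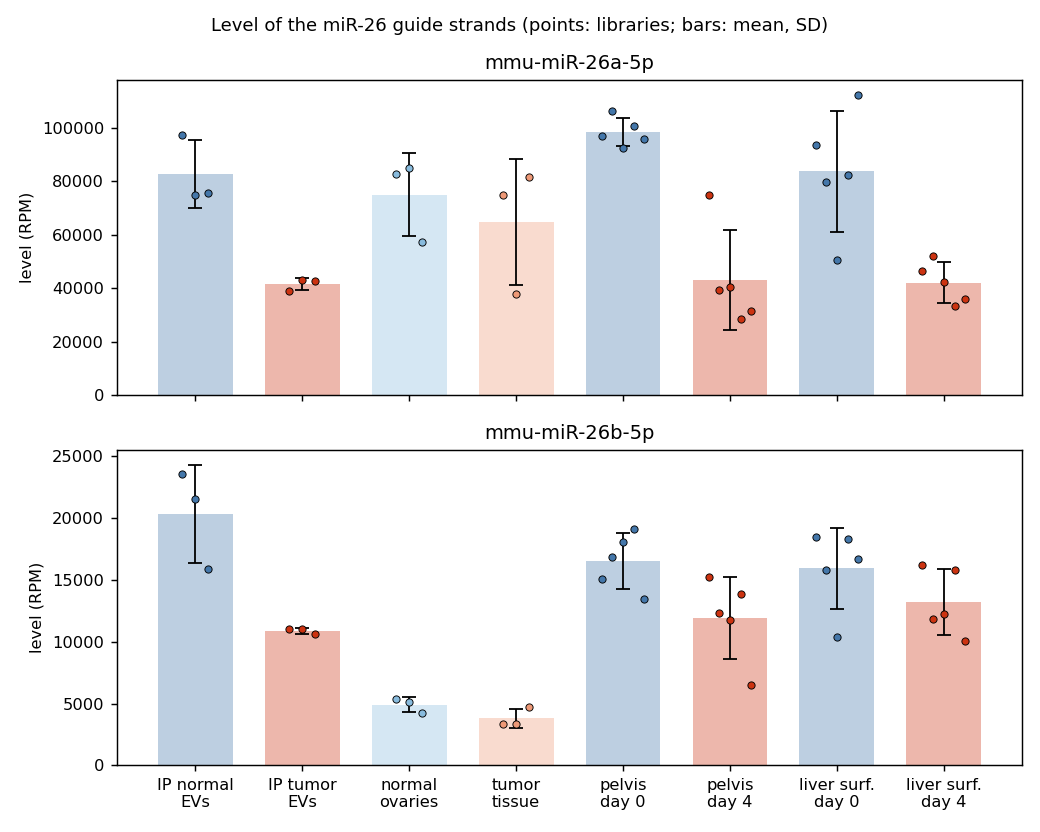
Level of mmu-miR-26a-5p (top) and mmu-miR-26b-5p (bottom) in RPM on linear axes, with 1 point per library and bars with the mean and SD of each group (n = 3 in the IP groups, n = 5 in the orthotopic groups). mmu-miR-26a-5p is between 37897 and 85001 RPM in tissue and between 28425 and 112335 RPM in EVs, while mmu-miR-26b-5p is between 3347 and 5352 RPM in tissue and between 6502 and 23520 RPM in EVs.

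To compare the tumor effect on the sheets, tumor and normal EVs of the IP model were set side by side. mmu-miR-26a-5p was at 39114, 43044 and 42627 RPM in the tumor EVs and at 97410, 75027 and 75690 RPM in the normal EVs. Every tumor library was below every normal one. On log2(RPM + 10) the difference was -0.98 ± 0.16 (SE, adjusted p = 0.00147, limma). mmu-miR-26b-5p was at 10995, 11007 and 10618 RPM in the tumor EVs and at 23520, 21558 and 15888 RPM in the normal EVs, again without overlap. Its log2 fold change was -0.88 ± 0.19 (adjusted p = 0.00525, limma).

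Both members thus passed the adjusted p of 0.05 but not the log2 fold change of 1, and neither was called, beside 52.1% of the 378 miRNAs tested that were. mmu-miR-26a-5p crossed that line without tumor replicate 2 (-1.01) or 3 (-1.0003) or without normal replicate 2 (-1.05) or 3 (-1.04). For mmu-miR-26b-5p this held without normal replicate 3 (-1.05). Of 9 fits that left out a library or a replicate number, 6 called mmu-miR-26a-5p and 2 called mmu-miR-26b-5p. The median over all tested miRNAs was itself -0.53. Scaled by median-of-ratios, which moved that median to -0.04, the log2 fold changes were -0.40 (adjusted p = 0.0961) and -0.30 (adjusted p = 0.151). Of the 9 let-7 guide strands, the abundant family used for comparison, 3 were higher and 0 lower, with a median of 0.04. The leukocyte miRNAs, which mark white blood cells, were called lower in 4 of 4 members. Their sum was 3830 to 4082 RPM in the tumor EVs and 11964 to 36909 RPM in the normal EVs. Of the 4 mesenchymal and smooth muscle miRNAs 2 were called lower and 1 higher, and of the 4 red blood cell miRNAs none was called. The epithelial miR-200 family was called lower in 5 of 5 members (299 to 609 RPM in sum against 2006 to 3856 RPM). The muscle miRNAs were called lower in 4 of 4 (1080 to 2131 RPM against 3780 to 8054 RPM), and so was the 1 endothelial miRNA tested of 2. The part of these cells in the miR-26 values was not tested.

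In tissue the members overlapped between tumors and normal ovaries. mmu-miR-26a-5p was at 75020, 37897 and 81480 RPM in tumors and at 82909, 85001 and 57197 RPM in ovaries. The log2 fold change was -0.27 (95% interval -1.10 to 0.56, adjusted p = 0.604, limma). mmu-miR-26b-5p was at 3360, 3347 and 4716 RPM in tumors and at 5352, 5141 and 4226 RPM in ovaries, with a log2 fold change of -0.38 (-0.92 to 0.17, adjusted p = 0.257, limma). Neither was called, beside 23.5% of 357 miRNAs. That background of 84 calls fell to 36 without ovary replicate 1, to 34 without ovary replicate 2 and to 0 without replicate number 1 of both groups (limma, with 87 at an unadjusted p under 0.05). Replicate 2 of the tumors held the low value of mmu-miR-26a-5p, and without it the log2 fold change was 0.08.

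Whether the tumor effect on the sheets differed from that in tissue was tested as an interaction over the 12 IP libraries. For mmu-miR-26a-5p the effect on EVs minus the effect in tissue was -0.72 (95% interval -1.60 to 0.17, adjusted p = 0.175, limma). For mmu-miR-26b-5p it was -0.51 (-1.17 to 0.16, adjusted p = 0.199, limma). Neither passed, beside 41.2% of 422 miRNAs that did. Without replicate 2 of the tumor tissue, the value for mmu-miR-26a-5p was -1.06 (adjusted p = 0.00591) and passed. Of 15 fits that left out a library or a replicate number, it passed in 2.

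EVs and tissue differed in mmu-miR-26b-5p. In the tumor-bearing mice the 3 EV libraries (10618 to 11007 RPM) were above the 3 tumors (3347 to 4716 RPM), and mmu-miR-26b-5p was called higher at a log2 difference of 1.53 ± 0.20 (SE, adjusted p = 0.000904, limma). In the PBS mice the EVs (15888 to 23520 RPM) were above the ovaries (4226 to 5352 RPM) by 2.04 ± 0.21 (SE, adjusted p = 0.00016, limma). The background was 47.3% of 351 miRNAs called in the first comparison and 59.0% of 390 in the second. In the ranking of log2 fold changes from the lowest, mmu-miR-26b-5p was at place 311 of 351 and at place 333 of 390. The median over all miRNAs was -0.10 and 0.50, and with median-of-ratios scaling (medians 0.01 and 0.04) mmu-miR-26b-5p was called at 1.66 and 1.44.

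mmu-miR-26a-5p was not called in either. It was at -0.56 (95% interval -1.31 to 0.18, adjusted p = 0.175, limma) in tumor EVs against tumors, and at 0.15 (-0.34 to 0.65, adjusted p = 0.55, limma) in normal EVs against ovaries. Without replicate 2 of the tumors the first value was -0.91 and passed the adjusted p (0.000355) but not the log2 fold change of 1, and without replicate 3 of the tumors it was -0.36. The second value turned negative with median-of-ratios scaling, at -0.45 (adjusted p = 0.151). The leukocyte miRNAs were called higher in EVs in 4 of 4 members in both comparisons, from 982 to 1854 RPM in sum in tumors and 496 to 752 RPM in ovaries. The endothelial miR-126a pair was called lower in 2 of 2 members, and the 4 mesenchymal and smooth muscle miRNAs, with miR-143-3p as the highest, were called lower in 4 of 4. The epithelial miR-200 family was called lower in 5 of 5, again in both comparisons. Of the red blood cell miRNAs 2 of 4 were called higher in tumor EVs than in tumors and 1 of 4 in normal EVs than in ovaries. Of the muscle miRNAs 3 of 4 were called higher in normal EVs than in ovaries. In tumor EVs against tumors 1 of the 3 muscle miRNAs tested was called lower and 0 higher. The 2 strands of the gonad miRNA miR-202 were called lower in normal EVs than in ovaries. The part of these cells in the miR-26 values was not tested. Of the let-7 guide strands, 1 of 9 was lower in tumor EVs than in tumors and 4 of 9 were lower in normal EVs than in ovaries, with none higher.

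**Figure D2:**
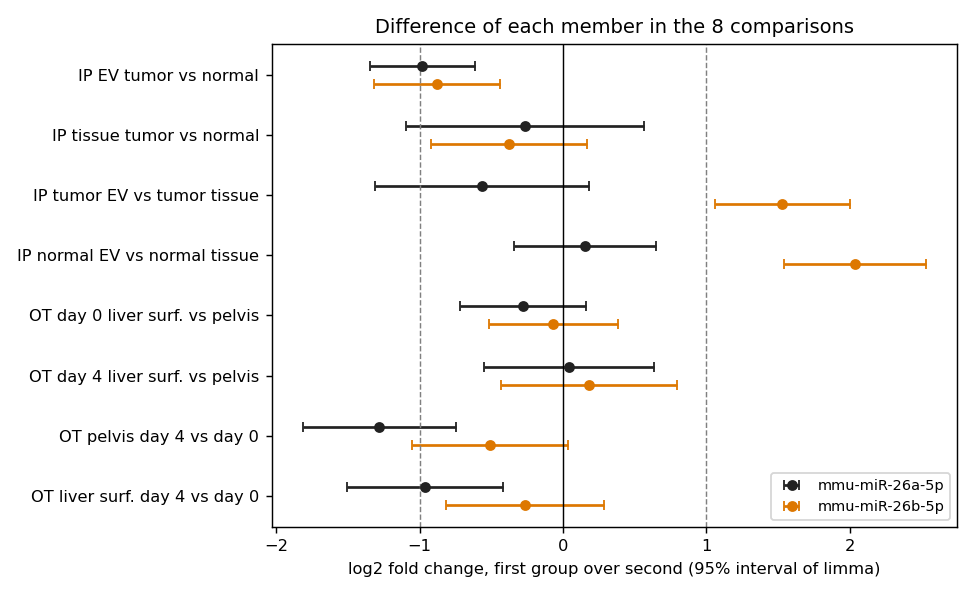
Log2 fold change of each member in the 8 comparisons, the first group over the second, with the 95% interval of limma on log2(RPM + 10), and dashed lines at the threshold of 1 in size. mmu-miR-26b-5p stands at 1.53 and 2.04 where EVs are compared with tissue, and mmu-miR-26a-5p at -1.28 and -0.96 where day 4 is compared with day 0.

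The sites of the orthotopic model did not separate the family. On day 0 the liver surface held 93423, 79720, 50624, 82265 and 112335 RPM of mmu-miR-26a-5p and the pelvic peritoneum 96863, 106244, 92435, 100495 and 95983 RPM. Replicate 3 of the liver surface was the lowest and replicate 5 the highest of these 10. In replicate 3 the hepatocyte miRNA miR-122-5p took 174591 RPM. The log2 fold change of the liver surface over the pelvic peritoneum was -0.28 (95% interval -0.72 to 0.16, adjusted p = 0.58, limma) for mmu-miR-26a-5p. For mmu-miR-26b-5p it was -0.07 (-0.51 to 0.38, adjusted p = 0.884, limma). The background was 1.56% of 385 miRNAs. The study lists mmu-miR-26b-5p among the miRNAs higher in EVs of the liver surface than of the pelvic peritoneum, at the same thresholds. On day 0 neither limma nor DESeq2 called it here. Whether the study's comparison used these same libraries is not stated.

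On day 4 the same difference was 0.04 (-0.55 to 0.63, adjusted p = 0.983, limma) for mmu-miR-26a-5p and 0.18 (-0.44 to 0.79, adjusted p = 0.947, limma) for mmu-miR-26b-5p. Here limma called 0% of 424 miRNAs, with 40 at an unadjusted p under 0.05, while edgeR called 0 and DESeq2 called 3 higher and 5 lower. The intervals do not show that the sites are alike, since they reach beyond 0.5 in size for both members.

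Between day 0 and day 4 mmu-miR-26a-5p fell on the pelvic peritoneum. It was at 96863, 106244, 92435, 100495 and 95983 RPM on day 0 and at 74995, 39450, 40571, 28425 and 31666 RPM on day 4. All day 4 libraries were below all day 0 libraries, and replicate 1 of day 4 stood well above the other 4. The log2 fold change was -1.28 ± 0.25 (SE, adjusted p = 0.00218, limma), at place 14 of 403 from the lowest, beside 24.1% of miRNAs called. The median over all tested miRNAs was 0.18, and with median-of-ratios scaling, which moved it to -0.10, mmu-miR-26a-5p was at -1.61 (adjusted p = 0.000441). Without replicate 1 of day 4 the difference was -1.50. Within the library series named in the labels it was -1.13 in NGS001 (replicates 1, 3 and 4, adjusted p = 0.0468, limma) and -1.51 in NGS002 (replicates 2 and 5, adjusted p = 0.167, limma). In NGS002, with 2 libraries a day, the call was thus lost, and limma called 0 of 421 miRNAs there, with 67 at an unadjusted p under 0.05.

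On the liver surface mmu-miR-26a-5p was at 46536, 52077, 42345, 33538 and 36182 RPM on day 4, against 50624 to 112335 RPM on day 0. The groups overlapped through replicate 2 of day 4 and replicate 3 of day 0. The log2 fold change was -0.96 ± 0.25 (SE, adjusted p = 0.0144, limma), just inside the threshold of 1 and so not called, at place 30 of 407 from the lowest, beside 18.4% of miRNAs called. With median-of-ratios scaling it was -1.34 (adjusted p = 0.000396), and both count tools called it, edgeR at -1.26 and DESeq2 at -1.29. It was also called without replicate 3 of day 0 (-1.13, adjusted p = 0.00142) and without replicate 1 (-1.0016) or 2 (-1.04) of day 4. Of 15 fits that left out a library or a replicate number, 5 called it. Within NGS001 it was -0.85 (adjusted p = 0.181, limma) and within NGS002 -1.12 (adjusted p = 0.182, limma).

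mmu-miR-26b-5p moved less. On the pelvic peritoneum it was at 15053, 16825, 18022, 19063 and 13430 RPM on day 0 and at 15254, 12284, 11768, 13841 and 6502 RPM on day 4, and the groups overlapped. Its log2 fold change was -0.51 (95% interval -1.06 to 0.03, adjusted p = 0.152, limma). On the liver surface it was at 18452, 15819, 10391, 18298 and 16682 RPM on day 0 and at 16175, 11790, 12202, 15824 and 10026 RPM on day 4, with a log2 fold change of -0.27 (-0.82 to 0.29, adjusted p = 0.519, limma). Neither was called.

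The day effect on the liver surface minus that on the pelvic peritoneum was 0.32 (95% interval -0.39 to 1.03, adjusted p = 0.999, limma) for mmu-miR-26a-5p and 0.25 (-0.46 to 0.96, adjusted p = 0.999, limma) for mmu-miR-26b-5p, beside 0.448% of 446 miRNAs called. The day effect was therefore not shown to differ between the sites for either member. Between the days, 24.1% of 403 miRNAs were called on the pelvic peritoneum and 18.4% of 407 on the liver surface. The counts per list that follow stand beside these shares. Red blood cell miRNAs, of which miR-451a was the highest, were called higher on day 4 on the pelvic peritoneum in 4 of 4 members (26019 to 99362 RPM in sum, against 687 to 52280 RPM on day 0) and in 0 of 4 on the liver surface (27993 to 75184 RPM against 3203 to 125542 RPM). Of the muscle miRNAs 1 of 4 was called lower on either site, miR-1a-3p, at -2.35 on the pelvic peritoneum and -2.31 on the liver surface. The median log2 fold change of that list was -0.38 and -0.85. Its member miR-206-3p was not called and went the other way by group mean, from 190 to 430 RPM and from 265 to 453 RPM. The mean of miR-133b-3p, also not called, rose on the pelvic peritoneum from 20.5 to 36.3 RPM. On the liver surface that mean fell from 45.2 to 24.9 RPM, while the median went from 22.1 to 23.5 RPM. None of the 4 leukocyte miRNAs was called on either site. Of the mesenchymal miRNAs 2 of 4 were called higher on either site. These were miR-199a-5p (1.31 and 1.197) and miR-214-3p (1.70 and 2.14). The others of that list, miR-143-3p and miR-145a-5p, went the other way by group mean and median on both sites and were not called. For miR-143-3p the median went from 4308 to 3504 RPM on the pelvic peritoneum and from 7031 to 4454 RPM on the liver surface. The median log2 fold change of the list was 0.07 and 0.11. Of the epithelial miRNAs 1 of 5, miR-200b-3p, was called lower on the pelvic peritoneum (-1.70), and of the hepatocyte miRNAs 1 of 3, miR-802-5p, was called lower on the liver surface (-2.07). The part of these cells in the miR-26 values was not tested.

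miR-21a-5p was at 108971 to 267408 RPM on day 4 and 83400 to 129815 RPM on day 0 on the pelvic peritoneum, a log2 difference of 0.81 that was not called. On the liver surface it was at 185292 to 290682 RPM on day 4 and 46751 to 110762 RPM on day 0, without overlap, and was called higher by 1.44 (adjusted p = 0.00138, limma). With 4 abundant miRNAs (miR-21a-5p, miR-451a, miR-122-5p and miR-143-3p) taken out of the total, mmu-miR-26a-5p was at -1.07 (adjusted p = 0.00318) on the pelvic peritoneum and at -0.79 (adjusted p = 0.00731) on the liver surface, on the same side of the thresholds as with the full total. Of the 9 let-7 guide strands 1 was higher and 2 were lower on the pelvic peritoneum on day 4, and 1 was higher and 0 lower on the liver surface.

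The ratio of mmu-miR-26a-5p to mmu-miR-26b-5p in a library cannot be changed by any scaling of that library. It was 11.3, 17.3 and 22.3 in tumors and 13.5, 15.5 and 16.5 in normal ovaries. In the EVs of the same model it was 3.56, 3.91 and 4.01 in tumor mice and 3.48, 4.14 and 4.76 in PBS mice. The 6 tissue libraries thus all lay above the 26 EV libraries, whose highest ratio was 7.15. By geometric means the ratio was 3.82 in tumor EVs and 16.3 in tumors, a difference of -2.10 ± 0.29 on the log2 scale (SE). In normal EVs it was 4.09 and in ovaries 15.1, a difference of -1.89 ± 0.16 (SE). The exact permutation p was 0.1 in both, the smallest that 3 against 3 libraries allow, and 0.2 adjusted over the 8 comparisons, so the test could not pass.

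Put as a share, mmu-miR-26b-5p was 4.29% to 8.12% of the family's reads in tissue and 12.3% to 32.7% in EVs. The tumor did not move the ratio by more than its spread in EVs (log2 difference -0.10 ± 0.14, exact permutation p = 0.5, 0.667 adjusted) or in tissue (0.11 ± 0.30, exact permutation p = 0.8, 0.8 adjusted).

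On the CNF sheets of the orthotopic model the ratio fell between the days. On the pelvic peritoneum it was 6.43, 6.31, 5.13, 5.27 and 7.15 on day 0 and 4.92, 3.21, 3.45, 2.05 and 4.87 on day 4, without overlap. The log2 difference was -0.77 ± 0.25 (SE), with an exact permutation p = 0.00794, which is the smallest that 5 against 5 allow, and 0.0317 adjusted over the 8 comparisons. On the liver surface it was 5.06, 5.04, 4.87, 4.50 and 6.73 on day 0 and 2.88, 4.42, 3.47, 2.12 and 3.61 on day 4, again without overlap. The log2 difference was -0.70 ± 0.20 (SE, exact permutation p = 0.00794, 0.0317 adjusted). Leaving out any 1 of the 5 day 0 libraries ended either call, with an adjusted p of 0.0952 to 0.159 on the pelvic peritoneum and 0.0635 on the liver surface, at differences of -0.83 to -0.71 and of -0.75 to -0.60. Leaving out a replicate number on both days also ended either call. With so few libraries the exact permutation test could not pass there (adjusted p = 0.114 on the liver surface). In all, 10 of 15 such fits lost the call on each site.

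On the pelvic peritoneum, where libraries of equal replicate number deviated together, the ratio was lower on day 4 in 5 of 5 pairs. The paired exact sign-flip test, which cannot go below 0.0625 with 5 pairs, gave 0.0625, and 0.167 adjusted. Equal numbers did not deviate together on the liver surface, and its days were not paired. Within NGS001 the log2 difference was -0.77 on the pelvic peritoneum and -0.80 on the liver surface, and within NGS002 it was -0.76 and -0.55. Replicate 4 had the lowest ratio of the day 4 libraries on both sites, 2.05 and 2.12. On day 0 the liver surface was below the pelvic peritoneum in 5 of 5 pairs by a mean of 0.21 on the log2 scale, which passed neither the unpaired test (exact permutation p = 0.151, 0.241 adjusted) nor the paired one (exact p = 0.0625, 0.167 adjusted). On day 4 the sites differed by -0.14 ± 0.29 (exact permutation p = 0.651, 0.744 adjusted).

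**Figure D3:**
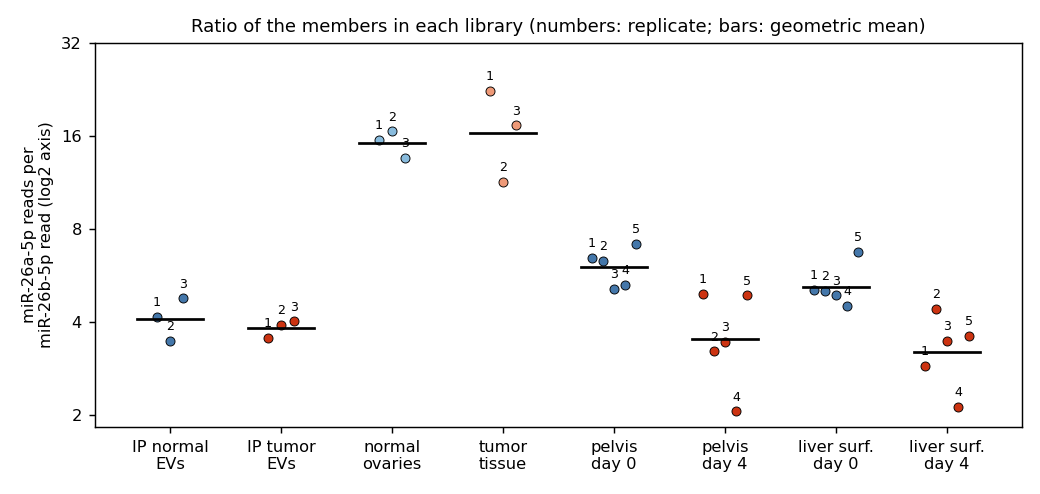
Ratio of mmu-miR-26a-5p to mmu-miR-26b-5p on a log2 axis, with 1 point per library, the replicate number beside it and a bar at the geometric mean of each group. Tissue lies at 11.3 to 22.3, the orthotopic EVs at 4.50 to 7.15 on day 0 and at 2.05 to 4.92 on day 4, and the IP EVs at 3.48 to 4.76.

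The partner strands, cut from the other arm of the same hairpins, were rare and are the reads that tell the mmu-miR-26a-5p loci apart. They are shown with bases 2 to 8 in capitals.
mmu-miR-26a-1-3p: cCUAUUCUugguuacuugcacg
mmu-miR-26a-2-3p: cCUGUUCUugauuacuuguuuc
mmu-miR-26b-3p: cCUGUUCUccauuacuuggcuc
Over all libraries mmu-miR-26a-2-3p had 1073 reads and mmu-miR-26a-1-3p had 112, beside 2288326 reads of mmu-miR-26a-5p. mmu-miR-26a-2-3p was the higher in 32 of 32 libraries. mmu-miR-26b-3p had 464 reads beside 409415 of mmu-miR-26b-5p. How many guide reads came from each locus does not follow from this, since arms can be kept at unequal rates.

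Tumor tissue held more of mmu-miR-26a-2-3p than any other group. It was at 74.8 to 93.0 RPM in the 3 tumors (45 to 69 reads each) and at 23.2 to 56.2 RPM in the 3 ovaries. It was called higher in tumors, by 1.08 ± 0.32 on the log2 scale (SE, adjusted p = 0.0416, limma). The call was lost with the replicate block (adjusted p = 0.0737), without a filter on low values (adjusted p = 0.0811) and at a pseudocount of 50 RPM (0.65 on the log2 scale). It was also lost without tumor replicate 1 (adjusted p = 0.0917) or 3 (0.0632) and without ovary replicate 1 (adjusted p = 0.178) or 2 (0.168). In the tumor EVs it was at 15.8 to 20.8 RPM, below the tumors by -1.75 ± 0.21 (SE, adjusted p = 0.000613, limma). Its tumor effect in EVs minus that in tissue was -1.81 ± 0.37 (SE, adjusted p = 0.0024, limma), while that of its guide strand was -0.72 and did not pass. Pooled with all reads of mmu-miR-26a-5p, mmu-miR-26a-2-3p made up 0.121% in tumors (exact 95% interval 0.103% to 0.141%) and 0.0506% in ovaries (0.0421% to 0.0602%). These intervals cover counting error over 3 pooled libraries each. Since mmu-miR-26a-5p comes from both Mir26a-1 and Mir26a-2, these are not shares of the Mir26a-2 strands alone.

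mmu-miR-26b-3p was at 13.6 ± 5.61 RPM in tumors, 17.5 ± 1.39 RPM in ovaries, 6.67 ± 3.33 RPM in tumor EVs and 16.4 ± 2.30 RPM in normal EVs (SD, n = 3 each). Against its guide strand it was 0.333% and 0.359% of the pooled reads in tumors and ovaries, and 0.0596% and 0.0814% in tumor and normal EVs. Between normal EVs and ovaries the partner strand itself differed by -0.06 on the log2 scale (95% interval -0.49 to 0.37), against 2.04 for its guide strand. The pseudocount of 10 RPM understates changes at the partner strand's level, so these values are not on a like scale. mmu-miR-26a-1-3p had 0 to 9 reads per library, too few for a comparison.

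Across libraries the members resembled different miRNAs. Over the 26 EV libraries, where 84 miRNAs averaged at least 1000 RPM, mmu-miR-26a-5p was most like miR-99a-5p (Spearman rho 0.85), then miR-125a-5p, let-7g-5p, miR-30d-5p and miR-1a-3p (0.75 to 0.76). mmu-miR-26b-5p was most like miR-142a-3p (0.84), a miRNA of blood leukocytes, then miR-191-5p, miR-29a-3p, miR-139-5p and the lymphocyte miRNA miR-150-5p (0.82 to 0.84). To each other the members had a rho of 0.69, place 10 of 83 for either. Over all 32 libraries the first was miR-99a-5p (0.83) for mmu-miR-26a-5p and miR-139-5p (0.90) for mmu-miR-26b-5p, before miR-142a-3p (0.90) and miR-150-5p (0.90), and the rho between the members was 0.48. These libraries share groups, depth and a common total, so the correlations only describe the series and carry no p.

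For mmu-miR-142a-3p the IP groups were ordered much like those of mmu-miR-26b-5p, except that tumors were above ovaries. It was at 6103 ± 2714 RPM in the normal EVs, 1482 ± 105 RPM in the tumor EVs, 674 ± 173 RPM in tumors and 239 ± 114 RPM in ovaries (SD, n = 3 each). In the orthotopic EVs it was at 5274 to 6844 RPM by group mean.

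**Figure D4:**
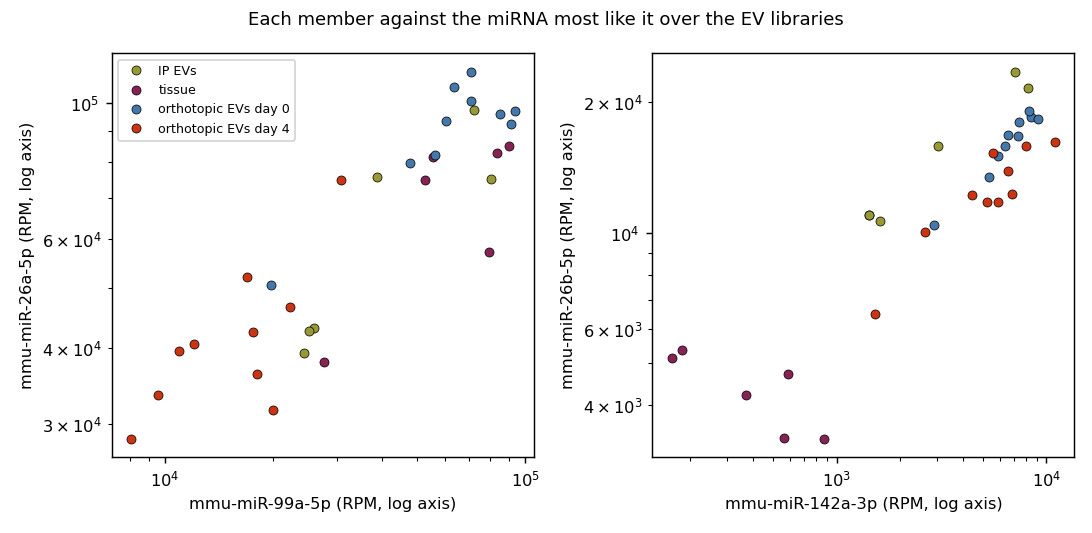
mmu-miR-26a-5p against miR-99a-5p (left) and mmu-miR-26b-5p against miR-142a-3p (right), in RPM on log axes with 1 point per library (32 in all, colored by sample kind). Over the 26 EV libraries the Spearman rho is 0.85 on the left and 0.84 on the right, and the 6 tissue libraries sit apart at the lower left of the right panel.

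The members also differed in how steady they were. Over the 26 EV libraries the coefficient of variation of RPM was 26.6% for mmu-miR-26b-5p, the 8th lowest of 84 miRNAs, and 41.9% for mmu-miR-26a-5p, at place 34, where the median miRNA had 47.8%. Over the 20 orthotopic libraries it was 23.0% and 43.5%. Over all 32 libraries, tissue included, the order turned, with 42.4% for mmu-miR-26b-5p and 39.0% for mmu-miR-26a-5p.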

How the data were processed

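Small RNA libraries (NEBNext) of CNF sheet EVs and tissues were sequenced by the authors. They removed adapters, assigned reads to miRBase 22 (CLC Genomics Workbench 9.5.3, at most 2 mismatches) and deposited RPM values. The deposited RPM table lists 1513 mouse miRNAs, 104 of them at 0 throughout. Every RPM value, divided by the lowest non-zero value of its library, gave a whole number (100% within 0.001), so that lowest value was read as 1 read. Within groups, 52 pairs of libraries were checked and 0 were identical.

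Libraries were grouped by the labels. RPM values were tested with limma 3.58.1 (R 4.3.3), two-sided with a mean-variance trend, after log2(RPM + 10). Tested were miRNAs that reached 10 RPM in as many libraries as the smaller group has. P-values were adjusted over all tested miRNAs by Benjamini and Hochberg. Calls needed an adjusted p below 0.05 together with a log2 change above 1 in either direction. The pseudocount understates changes of low miRNAs. The study's tool DESeq2 (1.42.0 here) and edgeR 4.0.16 (quasi-likelihood) were run on the recovered reads. The ratio was tested by exact two-sided permutation of libraries in Python 3.11.15, adjusted over 8 comparisons. The limma step was tried on simulated data for the IP EVs and for the days on the pelvic peritoneum. The exact tests were checked on small sets with known answers. The count tools, the interactions and the other scalings were not simulated.

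Equal replicate numbers were taken as pairs if each residual correlation was over 0.1. This was so between sites on day 0 (0.397 to 0.704) and day 4 (0.119 to 0.737), between days on the pelvic peritoneum (0.189 to 0.631), between IP EVs (0.169 to 0.271) and between normal EVs and ovaries (0.182 to 0.255). It was not so between days on the liver surface (-0.325 to 0.539). Members, lists and comparisons were chosen with earlier results of these data known. Named were both members, their partner strands, any miRNA with their seed, the 5 miRNAs most correlated with each member, the let-7 guide strands, and the leading marker or abundant miRNAs that moved beside a result. Levels of miR-142a-3p and miR-802 are named beyond that rule, after their values were seen. Alternatives were pseudocounts of 1 and 50, no filter or 100 RPM, median-of-ratios scaling, totals without 4 abundant miRNAs, both count tools, all libraries of a model in 1 fit, the library series, the replicate block and leaving out replicate numbers. Leaving out each single library was added after seeing the data.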

Additional observations from a re-analysis of the deposited data

Results flagged for a closer look

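Over the groups of 5 libraries, 28 sets of values were checked for a library far from the others, of which chance flags about 1 in 20, and 3 were flagged. On the pelvic peritoneum on day 4, replicate 1 held 74995 RPM of mmu-miR-26a-5p, while the other 4 libraries held 28425 to 40571 RPM. The same library had 9.02% of its reads in the family against 3.82% to 5.23% in the others. On the liver surface on day 0, replicate 5 had a ratio of mmu-miR-26a-5p to mmu-miR-26b-5p of 6.73, against 4.50 to 5.06 in the others.

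The tumor effect on mmu-miR-26a-2-3p differed between EVs and tissue by -1.81 on the log2 scale (adjusted p = 0.0024, limma interaction over the 12 IP libraries). The adjusted p was 0.0766 without replicate number 1 and 0.0526 without replicate number 2, and at a pseudocount of 50 RPM the difference was -0.99.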

How the results depend on the processing

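Of the 236 alternative values that left no library out for the members and ratios, 220 were counted as kept, by direction and side of the threshold. The ratio within a single library series was not tested. It was counted as kept if it lay within the pooled SD of the main value. For mmu-miR-26a-5p in normal EVs against ovaries the sign turned with median-of-ratios scaling (-0.45), edgeR (-0.51) and DESeq2 (-0.45). For mmu-miR-26b-5p on the liver surface against the pelvic peritoneum on day 0 it turned with median-of-ratios scaling (0.11), totals without 4 abundant miRNAs (0.052), edgeR (0.051), DESeq2 (0.12) and the library series NGS002 alone (0.11), and on day 4 that of mmu-miR-26a-5p turned with NGS001 alone (-0.13). The IP interaction of mmu-miR-26b-5p turned with median-of-ratios scaling (0.10). None of these values passed the test. The fall of mmu-miR-26a-5p on the liver surface was called with median-of-ratios scaling (-1.34), edgeR (-1.26) and DESeq2 (-1.29). On the pelvic peritoneum its call was lost in NGS002 alone (-1.51). The cause was not tested. With the replicate block the ratio between days stayed at -0.77 on the pelvic peritoneum and -0.70 on the liver surface and lost the call (adjusted p = 0.167), since 5 pairs cannot go below 0.0625. Equal numbers on the liver surface did not meet the rule for pairs. The replicate block changed no other call of the members or ratios.

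Leaving out a library or a replicate number gave the following log2 ranges. IP tumor against normal EVs ran from -1.07 to -0.81 for mmu-miR-26a-5p, -1.05 to -0.77 for mmu-miR-26b-5p and -0.23 to 0.0098 for the ratio. Tumors against ovaries ran from -0.65 to 0.18 for mmu-miR-26a-5p and -0.11 to 0.44 for the ratio, tumor EVs against tumors from -0.94 to -0.36 for mmu-miR-26a-5p, and normal EVs against ovaries from -0.032 to 0.32 for mmu-miR-26a-5p. The IP interaction of mmu-miR-26a-5p ran from -1.26 to -0.40. Between sites, mmu-miR-26b-5p ran from -0.16 to 0.11 on day 0 and from -0.026 to 0.28 on day 4, where mmu-miR-26a-5p ran from -0.086 to 0.26 and the ratio from -0.33 to 0.021. Between days on the liver surface, mmu-miR-26a-5p ran from -1.14 to -0.79 and the ratio from -0.82 to -0.55. On the pelvic peritoneum the ratio ran from -0.89 to -0.58, and mmu-miR-26a-5p was called in all 15 such fits.

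Depth limited the partner strands, of which a library held at most 71 reads. The day 4 libraries were the shallowest. Calls over all miRNAs for the sites went from 6 to 16 (DESeq2) or 21 (replicate block) on day 0 and from 0 to 8 or 7 on day 4. At a pseudocount of 50 RPM they went from 197 to 119 for IP EVs, from 84 to 55 for IP tissue, from 230 to 151 for normal EVs against ovaries and from 75 to 44 for the days on the liver surface. The filter of 100 RPM left fewer miRNAs to test and took 97 calls to 56 for the days on the pelvic peritoneum, 166 to 110 for tumor EVs against tumors and 174 to 111 for the IP interaction. Without replicate number 1 they went from 166 to 107 for tumor EVs against tumors and from 174 to 70 for the IP interaction, and in NGS002 alone from 75 to 13 for the days on the liver surface. With median-of-ratios scaling, higher and lower calls went from 61 and 136 to 83 and 94 for IP EVs, from 58 and 116 to 80 and 84 for the IP interaction, from 140 and 90 to 90 and 110 for normal EVs against ovaries, from 76 and 21 to 58 and 51 for the days on the pelvic peritoneum and from 63 and 12 to 45 and 37 on the liver surface.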
